A study of Mus musculus with 6 samples.

Results

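The genes described here are the RING finger protein genes, taken as every gene row of the deposited expression table whose symbol begins with Rnf and a number. The rule found 85 of the 22105 rows with an Ensembl gene identifier, and it used the name alone, not any measured value. It also took in 3 genes named as copies of another Rnf gene (Rnf26rt, Rnf7l and Rnf138rt1). RNA had been sequenced from RAW264.7, a mouse macrophage line derived from a tumour induced by the Abelson murine leukaemia virus. The treated cells (3 libraries) were exposed for 24 h to particles named CM-PEG-PLGA@DOX/R848, dosed to carry 2 µg/mL DOX, and the control cells (3 libraries) received PBS for 24 h. DOX is doxorubicin, which poisons topoisomerase II and damages DNA, while R848 stands for resiquimod, which activates Toll-like receptors of the endosome. PLGA and PEG are carrier polymers, and CM is not spelled out in the labels. Since no library received DOX, R848 or the empty carrier alone, their contributions cannot be told apart, and results hold for this 1 transformed line.

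RING finger proteins are the largest class of ubiquitin ligases. An E1 enzyme activates ubiquitin, an E2 enzyme carries it, and the ligase, called E3, brings the loaded E2 to a chosen substrate through its zinc-binding RING domain. In macrophages such ligases tune the sensing of foreign nucleic acids and the signals of Toll-like receptors, while in the nucleus others mark histones and sites of DNA damage. The name Rnf covers unrelated branches of this class, among them the RING-between-RING enzymes, which take ubiquitin onto themselves before passing it on, and the PA-TM-RING enzymes, which sit in membranes of the secretory and endolysosomal system.

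Values are read as FPKM, fragments scaled by transcript length and by library size. The table names no unit, and this reading is an inference from values that are not whole and from library totals of 451056 to 469220, which differ between libraries. The lowest values did not fall with transcript length, so the scaling by length was not shown, and orders of level between different genes hold only if the unit is FPKM. Fold changes also depend on the scale of the values, through the pseudocount. That of Rnf135, for instance, was 1.71, 1.51 and 0.71 at pseudocounts of 0.1, 1 and 10. A gene was tested when its mean over the 6 libraries was at least 1 FPKM. Differences were tested with limma on log2(FPKM + 1), and a gene is said to have risen or fallen when its two-sided Benjamini-Hochberg adjusted p over all 10229 genes tested was below 0.05. Fold changes are nanoparticle over PBS on that log2 scale, so that changes of low genes are understated. In bulk RNA, a change in the number of cells of a kind and a change in RNA per cell cannot be told apart. The labels do not say whether the replicates were separate cultures, so p-values measure the spread between these libraries, which may be technical.

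Across the whole table, nanoparticle libraries listed 15723 to 15989 genes above 0 FPKM, against 12678 to 12872 in PBS libraries. Of 10 macrophage marker genes, 9 were at or above 1 FPKM in every library, and Mertk was the exception. The markers moved in both directions. Lyz2, at 389 to 406 FPKM in nanoparticle libraries and 1482 to 1540 FPKM in PBS libraries, was lower, as were Cd14, Csf1r and Cd68. Adgre1, at 11.2 to 13.4 FPKM in nanoparticle libraries and 1.61 to 1.96 FPKM in PBS libraries, was higher, as were Mpeg1 and Fcgr1. Summed over the list, the level was 1574 to 1650 FPKM in nanoparticle libraries and 3427 to 3564 FPKM in PBS libraries. Markers of fibroblasts, epithelium, T cells and B cells summed to at most 0.536 FPKM per list in nanoparticle libraries and to at most 0.237 FPKM per list in PBS libraries. The part of these marker differences in the Rnf results was not tested.

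Promoter sequences of the Rnf genes were read from RefSeq (GRCm38.p6), where 66 of the 85 genes were found, with 84 windows. The 250 bases before each annotated start were searched on both strands for the ISRE core bound by interferon-activated factors (GAAA, 2 bases of any kind, GAAA), an NF-kB pattern (GGGA, 4 bases of any kind, CC) and the AP-1 pattern (TGANTCA, which reads the same on both strands). The ISRE core stood in windows of 3 of the 66 genes, 4.55%, and in 3.46% of the 27025 genes in the RefSeq set. The NF-kB pattern stood in 19 of the 66, 28.8%, and in 19.7% of all genes, while the AP-1 pattern stood in 5, 7.58%, and in 7.82% of all genes. The median GC content of the windows was 58.4% for the Rnf genes and 52.4% for all 32851 windows. A match is a description of letters and not a shown binding site. The following 4 windows are given because they belong to the gene with the largest rise (Rnf213), the RING-between-RING gene with the largest rise (Rnf19b), a gene that rose and carries both an ISRE core and the NF-kB pattern (Rnf121), and a gene that fell and carries the NF-kB pattern (Rnf145, the first of its 3 windows). Bases are written 5′ to 3′ on the strand of the gene, and capitals mark the motif matches.
Rnf213, chr11:119389849-119390098, plus strand: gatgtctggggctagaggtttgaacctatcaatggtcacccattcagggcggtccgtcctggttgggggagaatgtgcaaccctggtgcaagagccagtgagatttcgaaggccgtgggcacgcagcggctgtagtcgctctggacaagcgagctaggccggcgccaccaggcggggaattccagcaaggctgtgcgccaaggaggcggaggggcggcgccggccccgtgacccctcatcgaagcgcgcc
Rnf19b, chr4:129057894-129058143, plus strand: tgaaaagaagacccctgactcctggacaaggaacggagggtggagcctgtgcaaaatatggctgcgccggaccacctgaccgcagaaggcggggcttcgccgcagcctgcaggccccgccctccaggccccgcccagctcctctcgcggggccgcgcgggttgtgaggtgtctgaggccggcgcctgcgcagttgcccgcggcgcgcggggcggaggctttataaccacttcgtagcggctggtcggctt
Rnf121, chr7:102065166-102065415, minus strand: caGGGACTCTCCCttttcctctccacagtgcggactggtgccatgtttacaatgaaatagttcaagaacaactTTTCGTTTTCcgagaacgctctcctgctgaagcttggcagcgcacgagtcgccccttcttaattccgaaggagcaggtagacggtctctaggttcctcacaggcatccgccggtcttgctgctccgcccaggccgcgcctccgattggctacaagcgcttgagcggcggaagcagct
Rnf145, chr11:44518706-44518955, plus strand: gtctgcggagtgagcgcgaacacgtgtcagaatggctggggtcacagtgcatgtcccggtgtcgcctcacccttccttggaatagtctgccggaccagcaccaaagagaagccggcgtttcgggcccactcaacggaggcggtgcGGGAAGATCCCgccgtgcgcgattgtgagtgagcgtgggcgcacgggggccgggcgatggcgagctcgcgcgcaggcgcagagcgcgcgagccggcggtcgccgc

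In these windows Rnf213 and Rnf19b held none of the 3 patterns as searched. The NF-kB pattern was searched only with A after GGG, so related forms with G there were not counted. The Rnf213 window holds such a stretch, ggggaattcc, so the lack of a match does not show that it lacks an NF-kB-like sequence. The Rnf213 window, placed by its RefSeq start, ends at 119390098, before the GENCODE gene start of 119393100. The bases directly before that GENCODE start were not searched. Rnf121 held an ISRE core on the opposite strand at position -177 relative to the start, and overlapping NF-kB matches on both strands at -248 and -247. The Rnf145 window held overlapping NF-kB matches on both strands at -105 and -104. The other genes with an ISRE core were Rnf146, which rose, and Rnf182, which was below the test's minimum level.

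Most Rnf genes that RAW264.7 cells expressed were higher after the particles. Of the 58 Rnf genes tested, 35 rose (60.3%), 11 fell (19.0%) and 12 did not pass the threshold. The 11 include Rnf26rt, a near-identical copy of Rnf26, with means of 0.731 FPKM in nanoparticle libraries and 1.28 FPKM in PBS libraries. Rnf26rt reached the minimum level only through its PBS values, so it adds no separate support to the count of falls. Among all 10229 genes tested, 42.7% rose and 34.5% fell, so that 77.2% passed in either direction. The median log2 fold change was 0.39 for the Rnf genes and 0.08 for all genes. The Rnf values ran from -0.83 (Rnf144b) to 2.65 (Rnf213), and their quartiles were -0.03 and 0.75, against -0.38 and 0.54 for all genes. A rise of at least 1 on the log2 scale was reached by 9 Rnf genes, 15.5% of those tested against 11.4% of all genes. With a pseudocount of 1 no Rnf gene fell by that much, while 6.29% of all genes did. With a pseudocount of 0.1, Rnf144b fell by 1.25. The nanoparticle and PBS values did not overlap for 46 of the 58 Rnf genes, which were the same 46 that passed the threshold, and for 78.8% of all genes tested.

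**Figure D1:**
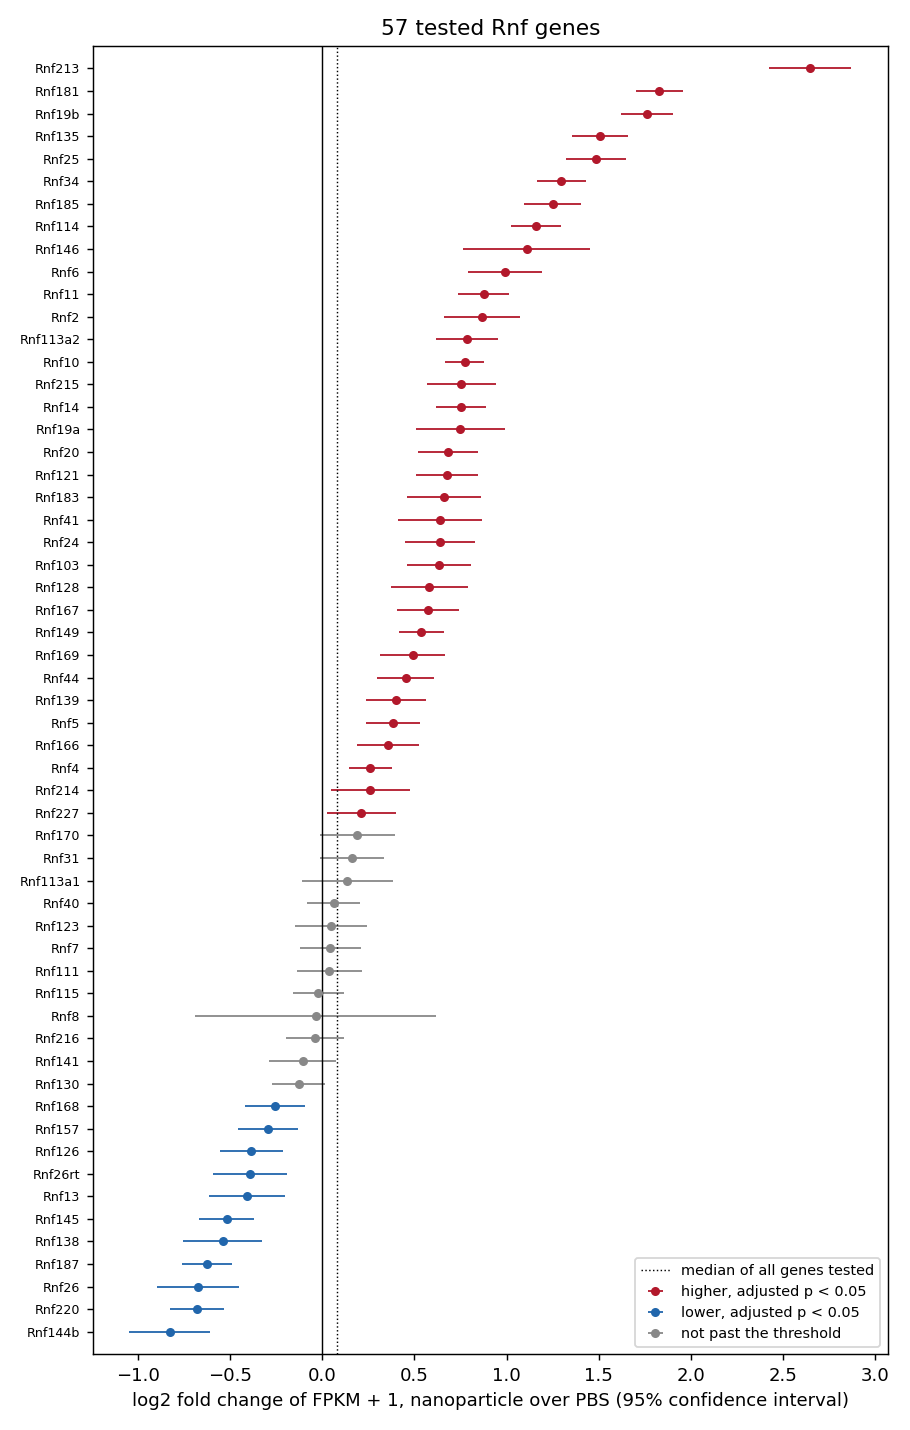
The log2 fold change of FPKM + 1 (nanoparticle over PBS) is plotted for 57 of the 58 tested Rnf genes, with its 95% confidence interval from limma. Red points rose, blue points fell, grey points did not pass an adjusted p of 0.05, and the dotted line is the median of all genes tested, 0.08. Rnf213 stands highest at 2.65 and Rnf144b lowest at -0.83.

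Summed over the 85 genes, Rnf transcripts stood at 1631, 1618 and 1638 FPKM in the nanoparticle libraries, against 1141, 1174 and 1156 FPKM in the PBS libraries. The sums did not overlap, and the ratio of their means was 1.41. Rnf181, Rnf213, Rnf19b and Rnf10 together made up 61.9% of the net gain of the sum. Without these 4 genes the sums averaged 1187 ± 6.46 FPKM in nanoparticle libraries and 1007 ± 15.9 FPKM in PBS libraries (SD, n = 3), a ratio of 1.18.

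The most abundant Rnf gene differed between the groups. In nanoparticle libraries the order began with Rnf10 (131 ± 1.95 FPKM), Rnf181 (123 ± 5.80 FPKM) and Rnf213 (104 ± 13.2 FPKM). The libraries of Rnf181 (117 to 128 FPKM) and Rnf213 (94.3 to 119 FPKM) overlapped. In PBS libraries it began with Rnf187 (90.8 ± 3.76 FPKM), Rnf10 (76.5 ± 0.595 FPKM) and Rnf126 (70.6 ± 2.76 FPKM). Rnf213 was 3rd of the 85 genes in nanoparticle libraries and 23rd in PBS libraries, whereas Rnf187 was 9th in nanoparticle libraries and 1st in PBS libraries. Over the 58 tested genes, Spearman's rho between the mean levels of the 2 groups was 0.891, and rho between log2 fold change and the PBS level was -0.087. Both are descriptions across genes measured in the same 6 libraries.

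Among ligases of nucleic acid sensing and antiviral defence, 7 of 9 tested genes rose, 1 fell and 1 did not pass, with a median log2 fold change of 0.58. Counts of this list and of all lists below are to be read beside all genes tested, of which 42.7% rose and 34.5% fell (median 0.08). No list was tested against those shares. Rnf213 (ENSMUSG00000070327, plus strand of chromosome 11, 119393100 to 119487418, GRCm38) encodes a giant ATPase and ligase that interferon induces and that coats intracellular bacteria. It stood at 98.8, 94.3 and 119 FPKM in nanoparticle libraries, against 16.2, 13.8 and 17.1 FPKM in PBS libraries. The lowest treated library was above 5 times the highest control. Its means were 6.62-fold apart, and the log2 fold change was 2.65 ± 0.10 (SE), at a limma adjusted p of 9.8e-09. A gene model on the opposite strand, A930037H05Rik, shares 8.74% of its exon bases.

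Rnf135 encodes Riplet, which attaches ubiquitin chains to the RNA sensor RIG-I and activates it. Its levels were 12.5, 13.1 and 12.3 FPKM in nanoparticle libraries, against 3.81, 3.91 and 3.64 FPKM in PBS libraries. The groups were far apart relative to their spread (log2 fold change 1.51 ± 0.07 SE, limma adjusted p = 3.4e-08). Rnf114, a ligase whose human counterpart is a psoriasis susceptibility gene and is induced by interferon, stood at 82.1, 77.8 and 73.6 FPKM in nanoparticle libraries, against 35.7, 33.3 and 33.7 FPKM in PBS libraries. It rose by 1.16 ± 0.06 on the log2 scale (SE, limma adjusted p = 7.8e-08). Rnf125, which marks RIG-I for degradation, was too low to be tested, with 0.434, 0.433 and 0.314 FPKM in nanoparticle libraries, against 0, 0 and 0.0400 FPKM in PBS libraries. Its groups did not overlap, but every value lay below 0.5 FPKM.

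Rnf185 and Rnf5 encode related ligases of the endoplasmic reticulum (ER) membrane that act on the DNA sensor cGAS and on the adaptors STING and MAVS. Rnf185 stood at 19.7, 19.1 and 19.7 FPKM in nanoparticle libraries, against 7.67, 7.05 and 8.19 FPKM in PBS libraries. It rose by 1.25 ± 0.07 on the log2 scale, and Rnf5 by 0.38 ± 0.07 (SE, limma adjusted p = 1.4e-07 and 4.2e-04). An opposite-strand gene model, Gm20463, shares 24.7% of the exon bases of Rnf5. Rnf128, known as GRAIL from its part in T cell anergy, rose by 0.58 and Rnf166 by 0.36. Rnf115 did not pass, at 47.1 ± 2.34 FPKM in nanoparticle libraries and 47.8 ± 2.38 FPKM in PBS libraries (SD, n = 3), with a 95% confidence interval of -0.16 to 0.12 on the log2 scale.

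Rnf26, an ER membrane ligase that acts on STING and also anchors endosomes, was the antiviral ligase that fell. It stood at 34.3, 32.97 and 32.8 FPKM in nanoparticle libraries, against 44.7, 58.4 and 59.9 FPKM in PBS libraries. The groups did not overlap, although PBS replicate 1 lay well below the other two (log2 fold change -0.68 ± 0.10 SE, limma adjusted p = 1.5e-04). Its value is uncertain for 2 reasons of annotation. A same-strand gene model, Gm49380, shares 2059 of its exon bases, and the processed copy Rnf26rt is 99.1% identical over 2322 bases. Rnf26rt itself had 0.731 ± 0.0272 FPKM in nanoparticle libraries and 1.28 ± 0.175 FPKM in PBS libraries (SD, n = 3).

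**Figure D2:**
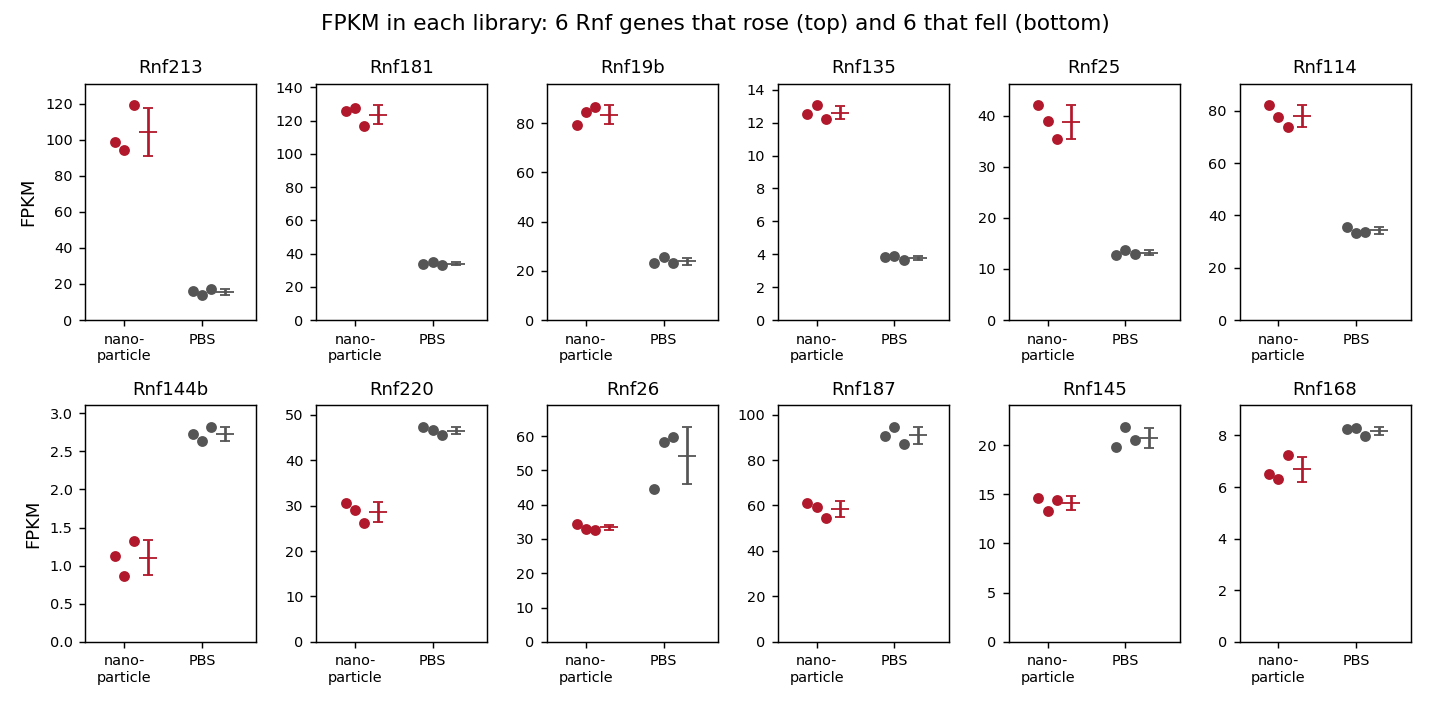
FPKM is plotted in each library for 6 Rnf genes that rose (upper row) and 6 that fell (lower row), nanoparticle in red and PBS in grey, with the mean and SD of n = 3 beside the points and every axis starting at 0. In each panel the 3 nanoparticle points are separate from the 3 PBS points. Rnf213 reached 119 FPKM with nanoparticles against at most 17.1 FPKM with PBS.

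Ligases of NF-kB and Toll-like receptor signalling rose in 3 of 6 tested genes and fell in none, with a median log2 fold change of 0.40. Of all genes tested, 42.7% rose. Rnf25, which binds the NF-kB subunit p65 and also acts at stalled ribosomes, stood at 42.0, 38.9 and 35.4 FPKM in nanoparticle libraries, against 12.8, 13.7 and 12.9 FPKM in PBS libraries. Each treated library was above every control by more than the spread within either group (log2 fold change 1.49 ± 0.07 SE, limma adjusted p = 5.4e-08). Rnf11, a partner of the NF-kB inhibitor A20, had 25.4 ± 0.924 FPKM in nanoparticle libraries and 13.4 ± 0.570 FPKM in PBS libraries (SD, n = 3) and rose by 0.88. Rnf41, which encodes Nrdp1, a ligase of Toll-like receptor and growth factor receptor signalling, had 28.3, 25.6 and 22.7 FPKM in nanoparticle libraries, against 16.3, 17.98 and 13.9 FPKM in PBS libraries. Its rise of 0.64 passed with a limma adjusted p of 2.7e-04.

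Rnf31 encodes HOIP, the catalytic subunit of the linear ubiquitin chain assembly complex (LUBAC). It did not pass in the fit without a replicate term, with 9.18, 8.77 and 9.05 FPKM in nanoparticle libraries, against 8.78, 7.34 and 7.77 FPKM in PBS libraries. The groups overlapped (log2 fold change 0.16, limma adjusted p = 0.083). With the replicate number as a block the same difference passed, with a limma adjusted p of 0.041, and without PBS replicate 1 it was 0.23 with a limma adjusted p of 0.031. It shares 123 exon bases with the interferon response gene Irf9, on the same strand. Of the other LUBAC subunits, Rbck1, which encodes HOIL-1, fell to 27.5 ± 1.55 FPKM in nanoparticle libraries, against 43.4 ± 3.12 FPKM in PBS libraries. Sharpin rose to 32.8 ± 3.13 FPKM in nanoparticle libraries, against 21.2 ± 0.933 FPKM in PBS libraries (SD, n = 3 each). Over the 7 tested LUBAC partners and linear chain erasers, 4 rose, 1 fell and 2 did not pass (median 0.20). The list also held Ikbkg and Tnfaip3, which are not linear chain erasers. Of the erasers, Otulin rose by 0.20 and Cyld did not pass (-0.01). The eraser complex gene Spata2 rose by 0.75 and Tnfaip3, which encodes A20, by 2.07. Spata2 and Rnf114 share 129 exon bases on opposite strands. Rnf123, a ligase that promotes processing of the NF-kB precursor p105, did not pass, with a 95% interval of -0.15 to 0.24. It shares 13.9% of its exon bases with Gmppb on the opposite strand. Rnf216, which degrades Toll-like receptors and their adaptors, did not pass either, with a 95% interval of -0.20 to 0.12.

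The DNA damage ligases were divided. Of 7 tested, 2 rose, 3 fell and 2 did not pass, with a median log2 fold change of -0.04. Rnf168, which marks histone H2A around double-strand breaks, stood at 6.52, 6.30 and 7.22 FPKM in nanoparticle libraries, against 8.25, 8.28 and 7.99 FPKM in PBS libraries. Every treated library was lower than every control (log2 fold change -0.26 ± 0.07 SE, limma adjusted p = 0.00865). Rnf169, which competes for the mark that Rnf168 writes, moved the other way, at 4.03 ± 0.289 FPKM in nanoparticle libraries and 2.58 ± 0.0776 FPKM in PBS libraries (SD, n = 3, log2 fold change 0.49).

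Rnf138, a ligase that promotes resection of broken DNA ends, fell to 5.84, 5.99 and 7.24 FPKM in nanoparticle libraries, against 8.83, 10.7 and 9.59 FPKM in PBS libraries. The groups were separate (log2 fold change -0.54 ± 0.10 SE, limma adjusted p = 5.3e-04). Rnf126, which works with the chaperone Bag6 on mislocalized proteins and also acts in DNA repair, fell by 0.39 on the log2 scale. Rnf4, a ligase that recognizes SUMO-modified proteins, rose to 66.3 ± 2.26 FPKM in nanoparticle libraries, against 55.2 ± 0.983 FPKM in PBS libraries (SD, n = 3, log2 fold change 0.26). Rnf111, the other SUMO-targeted ligase of the list, had a 95% interval of -0.14 to 0.21 and did not pass.

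Rnf8, which acts upstream of Rnf168, had the largest standard error of all tested Rnf genes, 0.29. It stood at 5.19, 6.69 and 7.80 FPKM in nanoparticle libraries, against 8.55, 9.84 and 3.37 FPKM in PBS libraries. PBS replicate 3 lay below every other library, and the 95% interval of the log2 fold change ran from -0.69 to 0.62. Without PBS replicate 3 the value was -0.44 and passed, with a limma adjusted p of 0.016. A same-strand gene model, Gm28043, shares 13.2% of the exon bases of Rnf8. Among 13 tested partners of the Rnf8 and Rnf168 pathway, 3 rose, 8 fell and 2 did not pass (median -0.25). The adaptor Mdc1, which recruits Rnf8, fell to 6.65 ± 0.332 FPKM in nanoparticle libraries, against 13.9 ± 1.14 FPKM in PBS libraries. Babam2, a subunit of a deubiquitinase complex at breaks, fell to 7.999 ± 0.167 FPKM in nanoparticle libraries, against 29.3 ± 1.28 FPKM in PBS libraries (SD, n = 3 each, log2 fold change -1.75, limma adjusted p = 6.4e-09).

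Of 5 ligases that ubiquitinate histones, 2 rose, 1 fell and 2 did not pass, with a median of 0.06. Rnf2, the catalytic subunit of Polycomb repressive complex 1 (PRC1), stood at 19.2, 17.5 and 20.96 FPKM in nanoparticle libraries, against 9.85, 9.13 and 11.4 FPKM in PBS libraries. Treated libraries were close to double the controls (log2 fold change 0.87 ± 0.09 SE, limma adjusted p = 1.4e-05). Its paralog Ring1 did not pass, at 8.92 ± 1.28 FPKM in nanoparticle libraries and 10.5 ± 0.326 FPKM in PBS libraries (SD, n = 3, log2 fold change -0.22, limma adjusted p = 0.055). The difference between the responses of the paralogs was not tested.

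Among 18 tested PRC1 partners, 9 rose and 5 fell (median 0.24). Cbx6, a chromatin reader subunit, fell by 1.09 on the log2 scale, and Kdm2b, which brings one PRC1 form to CpG islands, fell by 0.89. Bmi1, a core subunit that stimulates the ligase, rose by 0.72. Rnf20 ubiquitinates histone H2B in a pair with Rnf40. Rnf20 rose to 27.6 ± 2.65 FPKM in nanoparticle libraries, against 16.8 ± 0.264 FPKM in PBS libraries, with a 95% interval of 0.52 to 0.85 on the log2 scale. Rnf40 had 19.4 ± 0.363 FPKM in nanoparticle libraries and 18.6 ± 1.15 FPKM in PBS libraries (SD, n = 3 each), with an interval of -0.08 to 0.20. The E2 enzymes that serve this pair, Ube2a and Ube2b, rose by 1.13 and 0.85 on the log2 scale.

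Ligases of the ER membrane rose in 6 of 10 tested genes, fell in 3 and did not pass in 1, with a median of 0.39. Rnf145 and Rnf139 both promote degradation of the sterol-regulated enzyme HMG-CoA reductase, and they moved apart. Rnf145, which sterol-sensing LXR receptors induce, stood at 14.6, 13.3 and 14.5 FPKM in nanoparticle libraries, against 19.8, 21.9 and 20.5 FPKM in PBS libraries. The fall was 0.52 on the log2 scale, with a limma adjusted p of 5.3e-05. Rnf139 rose to 9.70 ± 0.744 FPKM in nanoparticle libraries, against 7.10 ± 0.0984 FPKM in PBS libraries (SD, n = 3, log2 fold change 0.40). It shares 22.3% of its exon bases with Tatdn1 on the opposite strand. Of the sterol-dependent partners of such ligases, Insig1 fell by 1.13 and its paralog Insig2 rose by 0.67 on the log2 scale.

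Rnf121, an ER and Golgi membrane ligase, rose by 0.68, Rnf103 by 0.63 and Rnf183, an ER ligase best known in kidney, by 0.66. Rnf13, a ligase of ER and lysosomal membranes, fell to 16.6, 17.6 and 17.6 FPKM in nanoparticle libraries, against 20.2, 23.3 and 26.6 FPKM in PBS libraries (log2 fold change -0.41). PBS values spread more widely there than nanoparticle values, but did not reach them. Rnf170, which degrades activated inositol trisphosphate receptors, did not pass in the fit without a replicate term (log2 fold change 0.19, limma adjusted p = 0.083). It passed with the replicate block (limma adjusted p = 0.049) and without PBS replicate 1 (0.27, limma adjusted p = 0.026). Among 18 other tested genes of ER-associated degradation, 12 rose and 4 fell (median 0.30). Syvn1, which encodes the central ligase HRD1, rose to 36.7 ± 1.57 FPKM in nanoparticle libraries, against 11.1 ± 0.279 FPKM in PBS libraries (SD, n = 3, log2 fold change 1.64, limma adjusted p = 7.6e-09).

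Of the RING-between-RING genes, 3 of 6 tested rose, 1 fell and 2 did not pass, with a median of 0.45. Rnf19b encodes a ligase known as NKLAM from natural killer cells and also present in macrophages. It stood at 79.2, 84.5 and 86.6 FPKM in nanoparticle libraries, against 23.1, 25.6 and 23.0 FPKM in PBS libraries. The treated libraries were all above 3 times every control (log2 fold change 1.76 ± 0.06 SE, limma adjusted p = 6.9e-09). Its paralog Rnf19a, also known as dorfin, was much lower, at 5.79 ± 1.02 FPKM in nanoparticle libraries and 3.02 ± 0.190 FPKM in PBS libraries (SD, n = 3), and rose by 0.75.

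Rnf144b, whose human counterpart is a target of p53, was the Rnf gene that fell furthest. It stood at 1.13, 0.864 and 1.32 FPKM in nanoparticle libraries, against 2.72, 2.64 and 2.82 FPKM in PBS libraries. The highest treated library was below every control, and the ratio of means was 0.405 (log2 fold change -0.83 ± 0.10 SE, limma adjusted p = 2.8e-05). At pseudocounts of 0.1 and 10 the log2 fold change was -1.25 and -0.20. Its paralog Rnf144a was at or under 0.0214 FPKM in nanoparticle libraries and listed at 0 in the PBS libraries, and Rnf217 was at or under 0.339 FPKM in all 6, so neither was tested.

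The PA-TM-RING genes rose in 4 of 6 tested cases, fell in 1 (Rnf13) and did not pass in 1, with a median of 0.56. Rnf149 rose to 46.0 ± 1.38 FPKM in nanoparticle libraries, against 31.3 ± 0.786 FPKM in PBS libraries (SD, n = 3, log2 fold change 0.54). A same-strand gene model, Gm15832, shares 24.9% of its exon bases. Rnf167, a lysosomal ligase that shares 5.34% of its exon bases with the opposite-strand gene Slc25a11 (72.6 FPKM on average), rose by 0.57 and Rnf215 by 0.76. Rnf130, the mammalian relative of the fly protein Goliath, had 47.6, 49.4 and 52.5 FPKM in nanoparticle libraries, against 51.5, 58.3 and 54.1 FPKM in PBS libraries. These groups overlapped by a single library each (log2 fold change -0.13, limma adjusted p = 0.091). It passed as lower with the replicate block, with a limma adjusted p of 0.045, and with median-ratio scaling, upper quartile scaling or without nanoparticle replicate 3, with values of -0.18, -0.23 and -0.17.

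The list for ribosome and translation quality control held Rnf10, Rnf14 and Rnf25, which all rose, and the gene copies Rnf113a1 and Rnf113a2, whose known role is a different one. Of these 5 tested genes 4 rose and none fell, with a median of 0.77. Rnf10, which ubiquitinates proteins of the small ribosomal subunit, stood at 134, 130 and 130 FPKM in nanoparticle libraries, against 77.0, 75.9 and 76.6 FPKM in PBS libraries. It had the smallest standard error of any Rnf gene (log2 fold change 0.77 ± 0.05 SE, limma adjusted p = 2.7e-07). Rnf14, which acts with Rnf25 on factors trapped in stalled ribosomes, rose to 29.5 ± 1.38 FPKM in nanoparticle libraries, against 17.1 ± 0.438 FPKM in PBS libraries (SD, n = 3, log2 fold change 0.75).

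Rnf113a2 and Rnf113a1 are copies of a gene whose human counterpart, RNF113A, takes part in splicing and in the response to alkylated DNA and RNA. Rnf113a2 rose to 37.8 ± 3.84 FPKM in nanoparticle libraries, against 21.4 ± 0.0753 FPKM in PBS libraries (log2 fold change 0.79). Rnf113a1 had 5.73 ± 0.575 FPKM in nanoparticle libraries and 5.15 ± 0.827 FPKM in PBS libraries (SD, n = 3 each) and did not pass, with a 95% interval of -0.11 to 0.38. The copies are 82.3% identical over 1062 bases, so the split of fragments between them is uncertain. The difference between the responses of the copies was not tested. Rnf7, the RING subunit of cullin ligases known as Rbx2, was abundant in both groups, at 63.4, 62.9 and 54.7 FPKM in nanoparticle libraries, against 56.6, 63.2 and 55.6 FPKM in PBS libraries. The values interleaved, and the 95% interval of -0.12 to 0.21 bounds the change in either direction.

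Among ligases of Wnt and TGF-beta signalling, 3 were tested, of which 1 rose, 1 fell and 1 did not pass. Rnf220, a nuclear ligase that stabilizes beta-catenin, fell to 30.6, 29.1 and 26.2 FPKM in nanoparticle libraries, against 47.3, 46.7 and 45.6 FPKM in PBS libraries. The groups lay far apart (log2 fold change -0.68 ± 0.07 SE, limma adjusted p = 6.3e-06). Rnf146, which ubiquitinates axin after it has been ADP-ribosylated, was listed at 11.5, 13.6 and 19.1 FPKM in nanoparticle libraries, against 7.02, 5.90 and 5.60 FPKM in PBS libraries (log2 fold change 1.11). Since 70.2% of its exon bases lie opposite exons of Echdc1, whose mean was 16.7 FPKM, and it is not given whether counting used strand, its level is uncertain. Rnf43, a membrane ligase that removes Wnt receptors, was at 0.0584, 0.0640 and 0.0593 FPKM in nanoparticle libraries and listed at 0 in the PBS libraries.

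In the group of p53, growth and nutrient control, 2 of 3 tested genes rose (Rnf34 and Rnf167) and 1, Rnf144b, fell. Rnf34, whose product binds initiator caspases and p53, stood at 21.1, 21.5 and 22.1 FPKM in nanoparticle libraries, against 8.05, 8.32 and 8.17 FPKM in PBS libraries. Both groups were tight (log2 fold change 1.30 ± 0.06 SE, limma adjusted p = 3.7e-08). It shares 14.1% of its exon bases with Kdm2b on the opposite strand, a gene that fell. Rnf152, a lysosomal ligase that restrains mTORC1, was at or under 0.0217 FPKM in every library.

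**Figure D3:**
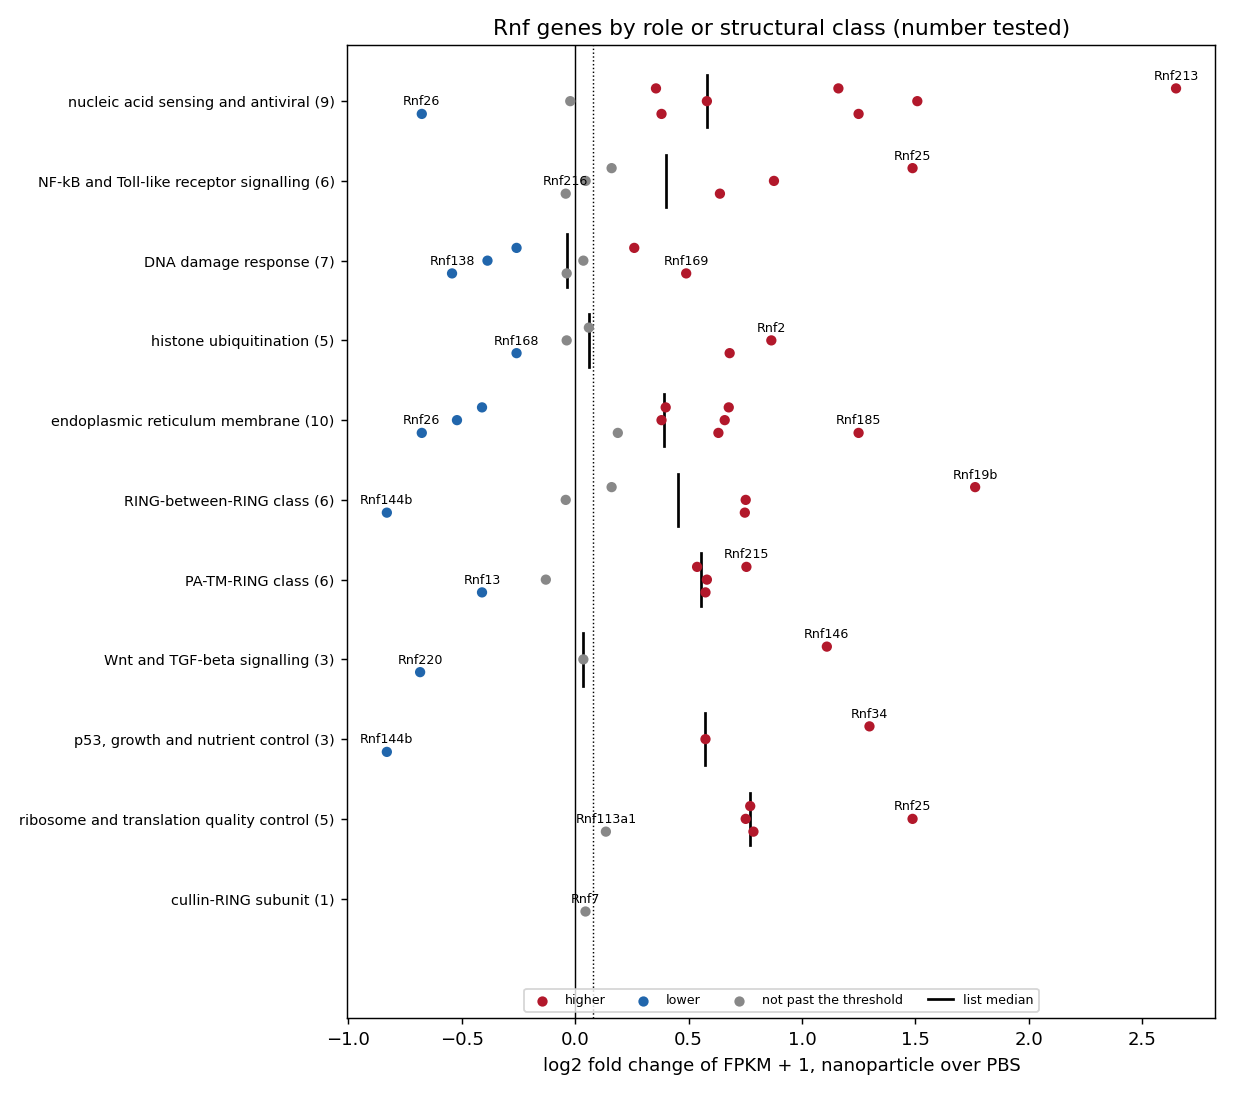
Each point is a tested Rnf gene, placed by its log2 fold change of FPKM + 1 (nanoparticle over PBS) in rows for role or structural class, with the number tested in brackets. A gene can stand in several rows. Red points rose, blue points fell, grey points did not pass, black bars are row medians, and the dotted line is the median of all genes tested. The row medians run from -0.04 for the DNA damage response to 0.77 for ribosome and translation quality control, a row that also holds the Rnf113a copies.

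A further 11 tested Rnf genes belonged to none of these lists, and 7 of them rose, 3 fell and 1 did not pass. Rnf181 gained 89.5 FPKM, a gain that its spread does not separate from the 88.4 FPKM of Rnf213. It stood at 126, 128 and 117 FPKM in nanoparticle libraries, against 33.4, 35.2 and 33.3 FPKM in PBS libraries. All treated libraries were above 3 times every control (log2 fold change 1.83 ± 0.06 SE, limma adjusted p = 2.6e-09). Rnf6, a RING ligase of nuclear receptors and the cytoskeleton, rose to 28.7 ± 3.94 FPKM in nanoparticle libraries, against 13.8 ± 0.457 FPKM in PBS libraries (SD, n = 3, log2 fold change 0.99).

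Rnf187, a coactivator of the AP-1 factor c-Jun, fell to 61.1, 59.5 and 54.6 FPKM in nanoparticle libraries, against 90.7, 94.6 and 87.1 FPKM in PBS libraries. No library crossed between the groups (log2 fold change -0.63 ± 0.06 SE, limma adjusted p = 6.8e-06). Rnf157, described mainly in neurons, fell by 0.30. Rnf24 and Rnf44 rose by 0.64 and 0.45, and Rnf24 shares 16.5% of its exon bases with the opposite-strand gene Pank2. The rises of Rnf214 (0.26) and Rnf227 (0.21) were the smallest of the 35 and did not hold in every setting. They were lost with no minimum level and with median-ratio scaling. With upper quartile scaling their limma adjusted p was 0.13 and 0.17, and without nanoparticle replicate 3 it was 0.088 and 0.12. They were also lost without PBS replicate 1 or PBS replicate 3, and Rnf227 without nanoparticle replicate 2, with limma adjusted p of 0.055 to 0.10 in those cases. Rnf214 shares 16.4% of its exon bases with Bace1 and 6.99% with Pcsk7, both on the opposite strand. Rnf141 did not pass, with an interval of -0.29 to 0.07, except with upper quartile scaling (-0.20, limma adjusted p = 0.036).

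The remaining 27 of the 85 Rnf genes were below the minimum level, and none exceeded 0.586 FPKM in any library. Of these, 3 were listed at 0 in all 6 libraries (Rnf138rt1, Rnf212b and Rnf224), 8 were above 0 in nanoparticle libraries alone, none in PBS libraries alone, and 16 in both groups. Among the 8, Rnf17, Rnf43 and Rnf182 were above 0 in all 3 nanoparticle libraries. Rnf genes above 0 FPKM numbered 77 to 80 in nanoparticle libraries and 69 to 71 in PBS libraries, and the count of all genes listed above 0 differed the same way. Whether that broader listing accounts for these low values was not tested. The minimum level lay right at Rnf26rt, since the lowest tested genes were Rnf26rt at 1.004 FPKM and Rnf144b at 1.92 FPKM on average. The highest untested genes were Rnf225 at 0.340 FPKM and Rnf217 at 0.268 FPKM. When any PBS library was left out, 57 Rnf genes were tested in place of 58. In 7 of the untested genes all nanoparticle values lay above all PBS values. The share of such genes among all genes below the minimum level was not computed, so this count stands without a background. Rnf225 was the single untested gene whose nanoparticle values (0.0985 to 0.255 FPKM) all lay below its PBS values (0.411 to 0.586 FPKM).

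The genes lie on 19 chromosomes, and the closest neighbours are Rnf133 and Rnf148 (3593 bases apart), Rnf224 and Rnf208 (5468 bases) and Rnf125 and Rnf138 (17479 bases). None of these pairs has both members above the minimum level.

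Enzymes upstream of the ligases moved in both directions. Of 9 tested E1 activating enzymes, 3 rose, 3 fell and 3 did not pass (median 0.06). Uba7, which activates the ubiquitin-like modifier ISG15, rose to 29.8 ± 1.19 FPKM in nanoparticle libraries, against 10.3 ± 0.340 FPKM in PBS libraries. Uba2, of the SUMO-activating enzyme, fell to 43.3 ± 2.92 FPKM in nanoparticle libraries, against 97.2 ± 0.511 FPKM in PBS libraries (SD, n = 3 each, limma adjusted p = 2.2e-08 and 7.9e-08). Of 33 tested E2 conjugating enzymes, 18 rose, 6 fell and 9 did not pass (median 0.25). Of all genes tested, 42.7% rose and 34.5% fell.

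Ube2h had the largest rise of the E2 genes, to 21.5, 22.1 and 25.9 FPKM in nanoparticle libraries, against 8.35, 8.29 and 8.93 FPKM in PBS libraries. Ube2b rose by 0.85 and Ube2l6, which carries ISG15, by 1.08, whereas Ube2k fell by 1.05. Among the 4 ubiquitin genes, the stress-responsive polyubiquitin gene Ubb rose to 907, 856 and 772 FPKM in nanoparticle libraries, against 326, 340 and 318 FPKM in PBS libraries. Every treated library was above double the highest control (log2 fold change 1.36 ± 0.07 SE, limma adjusted p = 6.8e-08).

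**Figure D4:**
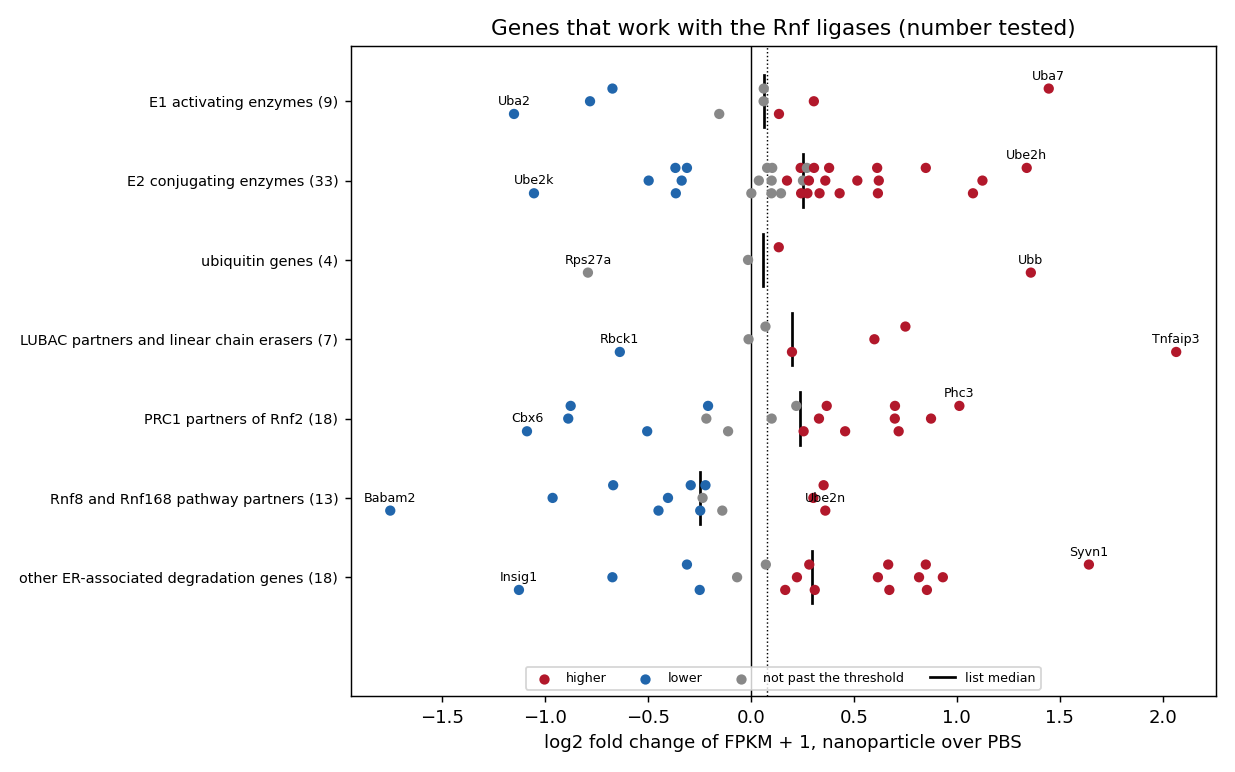
Each point is a tested gene that works with the Rnf ligases, placed by its log2 fold change of FPKM + 1 (nanoparticle over PBS), in rows for function with the number tested in brackets. Red points rose, blue points fell, grey points did not pass, black bars are row medians and the dotted line is the median of all genes tested. The extremes are Babam2 at -1.75 and Tnfaip3 at 2.07.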

How the data were processed

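RNA of 3 nanoparticle and 3 PBS libraries was measured. The authors deposited 1 table of expression values per gene and library, read here as FPKM, and its header names no unit. The submitters' processing notes list STAR, featureCounts, GRCm38 and mm10, and neither a version nor the normalization is recorded there. Sequencing depth is unknown. No assumed depth from 5000000 to 60000000 fragments made over 40.1% of low values whole within 0.05, so no count test was run. The 509 rows without an Ensembl gene identifier (0.427% to 0.497% of FPKM) were left out.

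Values were fitted as log2(FPKM + 1) where the mean was 1 FPKM or more, with limma 3.58.1 (R 4.3.3), an intensity trend and treatment as the only term. Coordinates and overlaps are from GENCODE M21 (GRCm38). The reported calls come from this unpaired fit. Deviations of libraries sharing a replicate number correlated at 0.13, 0.115 and 0.354, all over 0.1, and those of nanoparticle replicate 1 and PBS replicate 2, which share none, at 0.134. The remaining pairs with different numbers ran from -0.261 to 0.011. A block for the number was run as an alternative. Whether counting used strand is not known here.

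The genes and lists were chosen with earlier results of these data known. Named genes are the 12 largest called changes in each direction, the 6 most abundant, the 2 smallest p-values of each list and a chosen set. Others, Rbck1, Sharpin, Ring1, Bmi1, Ube2a, Ube2k, Ube2l6 and Insig2 among them, were named after their values were seen. A planned search for the RING pattern in proteins was not run, and the values of 2 genes that enter the counts are not reported here. Python 3.11.15, pandas 2.3.3 and matplotlib 3.10.9 were used.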

Additional observations from a re-analysis of the deposited data

How the results depend on the processing

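Of the 46 Rnf genes that passed, 44 (33 higher and 11 lower) kept their call and direction in each of the 14 alternative settings that tested them, which changed the pseudocount (0.1 or 10), the minimum level, the scaling, the trend or the replicate block, or left out 1 library. The exceptions were Rnf214 and Rnf227. The number of Rnf genes called higher was 33 to 35 and called lower 10 to 12 when 1 library was left out, 37 and 12 with the replicate block, and 33 and 13 with upper quartile scaling. With no minimum level 82 were tested, of which 40 were higher and 12 lower. Of all 18008 genes tested in that setting, 6244 were higher and 3560 lower. With upper quartile scaling 3805 of all 10227 genes were higher and 4084 lower, and with the replicate block 4609 and 3742 of 10229. Higher calls were 48.2% of all calls with upper quartile scaling, against 71.7% of Rnf calls. With 1 library left out, higher calls were 54.3% to 56.5% of all calls and 73.3% to 77.8% of Rnf calls. The block changed the calls of Rnf31, Rnf170 and Rnf130 and of no other Rnf gene. Signs turned for 6 Rnf genes, none of which had passed. Rnf111 was -0.01 with median-ratio scaling and -0.06 with upper quartile scaling, Rnf7 was -0.01 and -0.06, and Rnf40 was -0.04 with upper quartile scaling. Rnf123 was -0.01 and -0.05 with these scalings. Without 1 library, Rnf111 ranged from -0.01 to 0.09, Rnf123 reached -0.03, Rnf115 0.02, and Rnf8 ran from -0.44 to 0.21. The median of the Rnf genes was 0.42 at a pseudocount of 0.1 and 0.22 at 10, and Rnf26rt was -0.72 at 0.1. Upper quartile scaling moved the median of all genes to -0.02 and that of the Rnf genes to 0.29. Depth is unknown, so no limit could be set for genes listed at 0.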
